A study of Mus musculus with 3 samples.

Results

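The Cilp-high superficial cartilage-like cells were 2370 of the 19482 cells kept from 3 single-cell RNA-seq libraries of bone-lining cells (BLCs). They were picked by their counts: Cilp made up at least 0.4% of all unique molecular identifiers (UMIs, each standing for a captured transcript) of the cell, Acan had at least 1 UMI, and Ptprc, the gene of the leukocyte antigen CD45, had 0. Cells were left out if 3 or more of the 6 genes S100a4, Igfbp6, C1qtnf7, Cdh13, Meox2 and Cd34 were detected, or if Mfap4, Tnmd, Kera, Chodl, Ptx4 and Scx together reached 3 UMIs. The libraries hold Alcam+Sca-1- BLCs of wild-type mice, which were released from fragments of femora, tibias and iliac bones with collagenase and sorted as CD45-, Ter119-, CD31- and PI- cells. All 3 libraries, replicates 1, 2 and 3, belong to a single group. No label names an age, an animal, a batch or a date, so p-values measure how much differences between cell populations vary over these libraries. That spread may be technical.

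Joint cartilage is layered. The cells nearest the joint surface, the superficial zone, secrete lubricin (proteoglycan 4, the product of Prg4), which coats and lubricates the surface, whereas deeper chondrocytes make the bulk of the type II collagen and aggrecan matrix. Cilp encodes cartilage intermediate layer protein, a secreted matrix protein named for the middle layer of articular cartilage. Growth plate chondrocytes, which multiply, enlarge and help to lay down bone, form a separate cartilage of the long bones.

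The members numbered 313 of 2527, 704 of 6725 and 1353 of 10230 kept cells in replicates 1, 2 and 3. These are shares of 12.4%, 10.5% and 13.2% (12.0 ± 1.41%, mean ± SD, n = 3), with exact binomial 95% intervals, which cover counting error only, of 11.1 to 13.7%, 9.75 to 11.2% and 12.6 to 13.9%. Their median depth was 6097, 7654.5 and 5008 UMIs per cell, and their summed counts were 2073890, 5746107 and 7075899 UMIs. Of 2884 kept cells at or above the Cilp threshold, 357 had no Acan UMI, and the other conditions removed 3 cells for Ptprc, 145 for the fibroblast-type genes and 9 for the tendon genes. Acan takes part in the rule, so the presence of Acan is not a result.

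3 populations of the same libraries served as comparators. Growth plate cells (Prkg2 and Matn3 detected, no Mki67, Top2a, Wif1 or Myoc, Cilp under 0.1% of UMIs) numbered 688 and 773 in replicates 2 and 3, and the 5 cells of replicate 1 were too few to use. Wif1-type cells (at least 2 of Wif1, Cytl1 and Myoc with at least 3 UMIs in all, no Prkg2, Cilp under 0.1%) numbered 55, 1632 and 2706. Both met the members' conditions on Acan, Ptprc, the fibroblast-type genes and the tendon genes. The members' rule had no condition on Wif1, Cytl1, Myoc or Prkg2, and the members were not low in Cytl1. Its median share of a cell's UMIs in replicates 1, 2 and 3 was 2.34%, 2.62% and 2.77% in members. In Wif1-type cells it was 0.272%, 0.105% and 0.179%. Tendon-like cells (Ptprc at 0, any Cilp or Acan, at least 2 of the 6 tendon genes with at least 3 UMIs in all) numbered 85, 82 and 77. Levels below are counts-per-million (CPM) values, the UMIs of a gene over all UMIs summed in the same cells of a library, in the order of replicates 1, 2 and 3 (2 and 3 for growth plate cells). Differences are log2 fold changes with their standard error from edgeR's quasi-likelihood test on these sums, with the library as a block, and p is adjusted over all 14875 genes tested by the Benjamini-Hochberg method. The 22 genes used by any gate were not tested.

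Replicate 1 stood apart. Sparc, a collagen-binding matrix protein, was at 5248, 37194 and 38173 CPM in the members, low in replicate 1, while Mmp3, the matrix protease stromelysin, was at 846, 58.8 and 76.6 CPM, high in replicate 1. Transcripts of cartilage were also read in the 145, 120 and 199 Ptprc-positive cells, which should lack them. Free RNA and doublets as their source were not tested. Col2a1 was at 6.03, 1518 and 3189 CPM and Prg4 at 821, 586 and 2035 CPM there. No barcode of a member was shared between libraries.

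The label was checked against marker lists. The 5 superficial zone markers Prg4, Erg, Gdf5, Creb5 and Abi3bp summed to 75749 to 130723 CPM in the members, nearly all of it Prg4, against 212 to 346 CPM in growth plate cells, 14057 to 38541 CPM in Wif1-type cells and 3135 to 7727 CPM in tendon-like cells. The 7 chondrocyte markers include the gate genes Acan and Matn3, so their sums are in part set by the gates. They summed to 7051 to 17365 CPM in the members and 59417 to 64226 CPM in growth plate cells. Their sum was 11537 to 36715.5 CPM in Wif1-type cells, 1637 to 17761 CPM in tendon-like cells and 1807 to 43151 CPM in all other kept cells.

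Markers of other cell types are given as levels. The rule itself required Ptprc at 0 and few transcripts of the fibroblast-type and tendon genes, and tendon-like cells were gated on the same tendon genes, so the haematopoietic, fibroblast and tendon sums are in part set by the gates and are no check of the label. Over 6 tendon markers the summed level was 300 to 940 CPM in the 3 libraries, most of it Fmod, against 5158 to 5607 CPM in tendon-like cells. The 7 fibroblast markers summed to 148 to 177 CPM, the 5 markers of Cxcl12-abundant reticular cells to 45.2 to 388 CPM, the 4 mural markers to 4.18 to 68.0 CPM, and the 4 endothelial markers to 30.9 to 38.0 CPM with Kdr at 0 in every library. Erythroid markers summed to 6.61 to 23.3 CPM and cycling markers to 9.16 to 19.1 CPM. The 8 haematopoietic markers summed to 8.88 to 1806 CPM, and the high value was replicate 1, where the immunoglobulin gene Igkc alone was at 1779.75 CPM. Schwann cell markers summed to 270 to 330 CPM, nearly all from S100b (283, 326 and 267 CPM), which cartilage cells also express. The 7 osteoblast markers summed to 1794 to 3185 CPM in the members, most of it Ibsp. They summed to 18407 to 21830 CPM in Wif1-type cells, again most of it Ibsp, and 4430 to 13127 CPM in all other kept cells. The part of other cell types or of their RNA in the results was not tested.

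Cilp itself, on chromosome 9 (mm10, 65265180 to 65280605), was at 8323, 9482 and 9836 CPM in the members. Its median share of a cell's UMIs was 0.762%, 0.792% and 0.796%, and the highest cell reached 2.66%, 7.41% and 6.24%. These values follow from the rule. The other 5 genes given as markers of these cells were chosen on these libraries, so they are described with no test. Clu, clusterin, an extracellular chaperone (chromosome 14, 65968483 to 65981547), was at 10141, 8291 and 8498 CPM against 60.4 and 69.5 CPM in growth plate cells, 2727, 1387 and 1462 CPM in Wif1-type cells and 546, 365 and 534 CPM in tendon-like cells. The member libraries lay above every comparator library for Clu.

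Gas1, a membrane co-receptor of hedgehog ligands, was at 790.3, 1807 and 1731 CPM in the members. It was detected in 68.4, 88.4 and 86.9% of them, against 4.83, 9.17 and 10.6% of Ptprc-positive cells, which had a median depth of 21485, 20265.5 and 11580 UMIs. It was at 3.23 and 4.73 CPM in growth plate cells, 156, 273 and 245 CPM in Wif1-type cells and 353, 391 and 583 CPM in tendon-like cells. Gldc, the glycine decarboxylase of the mitochondrial glycine cleavage system, was at 82.5, 79.7 and 74.2 CPM, and no comparator library exceeded 9.80 CPM. Casr, the calcium-sensing receptor, was at 48.2, 54.3 and 38.4 CPM, and no comparator library exceeded 10.8 CPM. For Gas1, Gldc and Casr, as for Clu, members and comparators did not overlap. These markers were chosen on these libraries, so the lack of overlap is no check of the label.

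Msmp, which encodes a small secreted microseminoprotein, was spread unevenly over the members. Its level was 1460, 11401 and 4633 CPM, but 74.8%, 31.7% and 59.6% of the members held no Msmp UMI at all. Msmp reached 1% of the cell's UMIs in 17, 31 and 42 members (90 of 2370), and these held 71.7%, 97.7% and 94.9% of the Msmp UMIs of all members. In 0, 11 and 14 members Msmp was at least 10% of all UMIs, and the highest cell reached 5.33%, 54.2% and 51.7%. Such cells also lay outside the members: 61 Wif1-type cells and 113 cells outside all 4 populations reached 1%, whereas 0 growth plate and 0 tendon-like cells did.

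With their Msmp UMIs set aside, the Msmp-rich members had lower Prg4 and Dcn than the other members in every library. Prg4 was at 121576, 28426 and 40306 CPM in them against 130210, 77668 and 82351 CPM. Dcn, decorin, which binds collagen fibrils, was at 11838, 6396 and 7851 CPM against 15634, 17176 and 16302 CPM. Clu was also lower, at 5849, 5431 and 8209 CPM against 10390, 8544 and 8548 CPM, as were Chad and Ibsp in every library. The cut of 1% was set after the values were seen, and these differences were not tested.

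**Figure D1:**
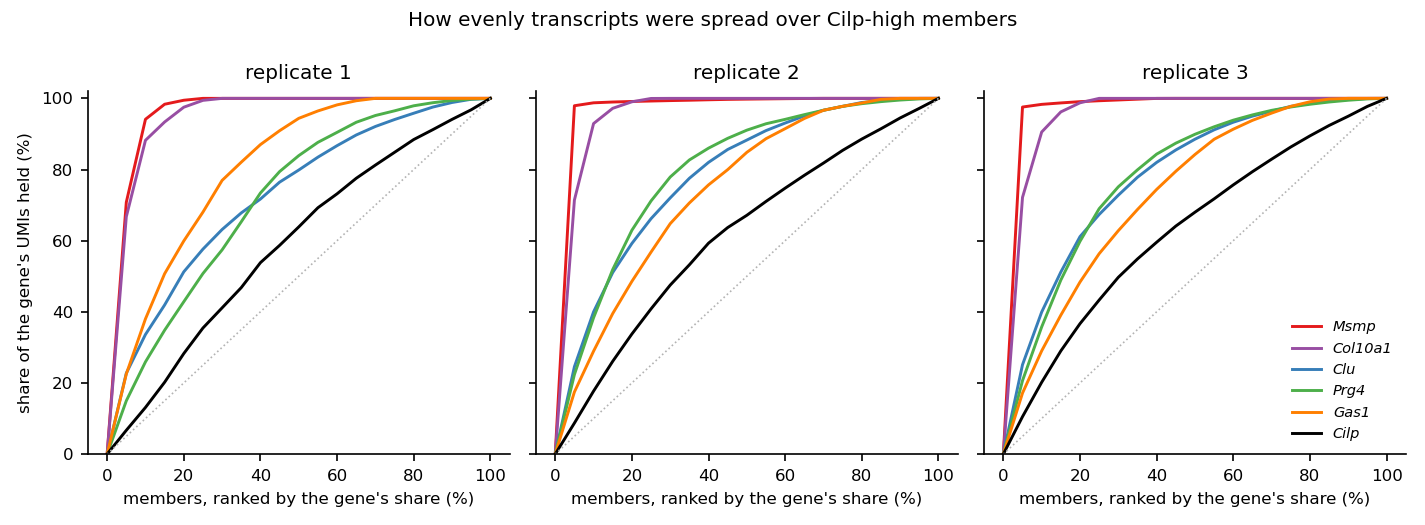
Share of a gene's UMIs over all members (y axis, percent) held by the members in which it is the largest share of the cell's UMIs (x axis, percent of members), 1 line per gene and 1 panel per library. For Msmp the top 5% of members held 70.8%, 97.9% and 97.6% of the UMIs in replicates 1, 2 and 3, for Col10a1 66.7%, 71.4% and 72.2%, and for Clu 22.7%, 24.6% and 25.1%.

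Prg4 was the gene with the most UMIs in the members, at 9.48 ± 3.02% of all UMIs (n = 3). It was followed by Malat1, Cytl1, Sparc, Ecrg4, Dcn and Mgp. Prg4 takes no part in the rule, and it lies on chromosome 1 (150449412 to 150466165, minus strand). Its level was 129574, 74312 and 80656 CPM in the members, 171 and 299.6 CPM in growth plate cells, 37804, 13216 and 14533 CPM in Wif1-type cells and 1168, 1400 and 5866 CPM in tendon-like cells. Every member library lay above every comparator library. The log2 difference was 8.71 ± 0.73 from growth plate cells (adjusted p = 6.6e-08), 5.71 ± 0.54 from tendon-like cells (adjusted p = 5.1e-07) and 2.35 ± 0.45 from Wif1-type cells (adjusted p = 0.0013). The difference from Wif1-type cells missed the threshold without replicate 2 (2.25) and when those cells were allowed up to 0.4% Cilp (1.09). That from tendon-like cells was 5.07 without replicate 1 and 6.70 without replicate 3.

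**Figure D2:**
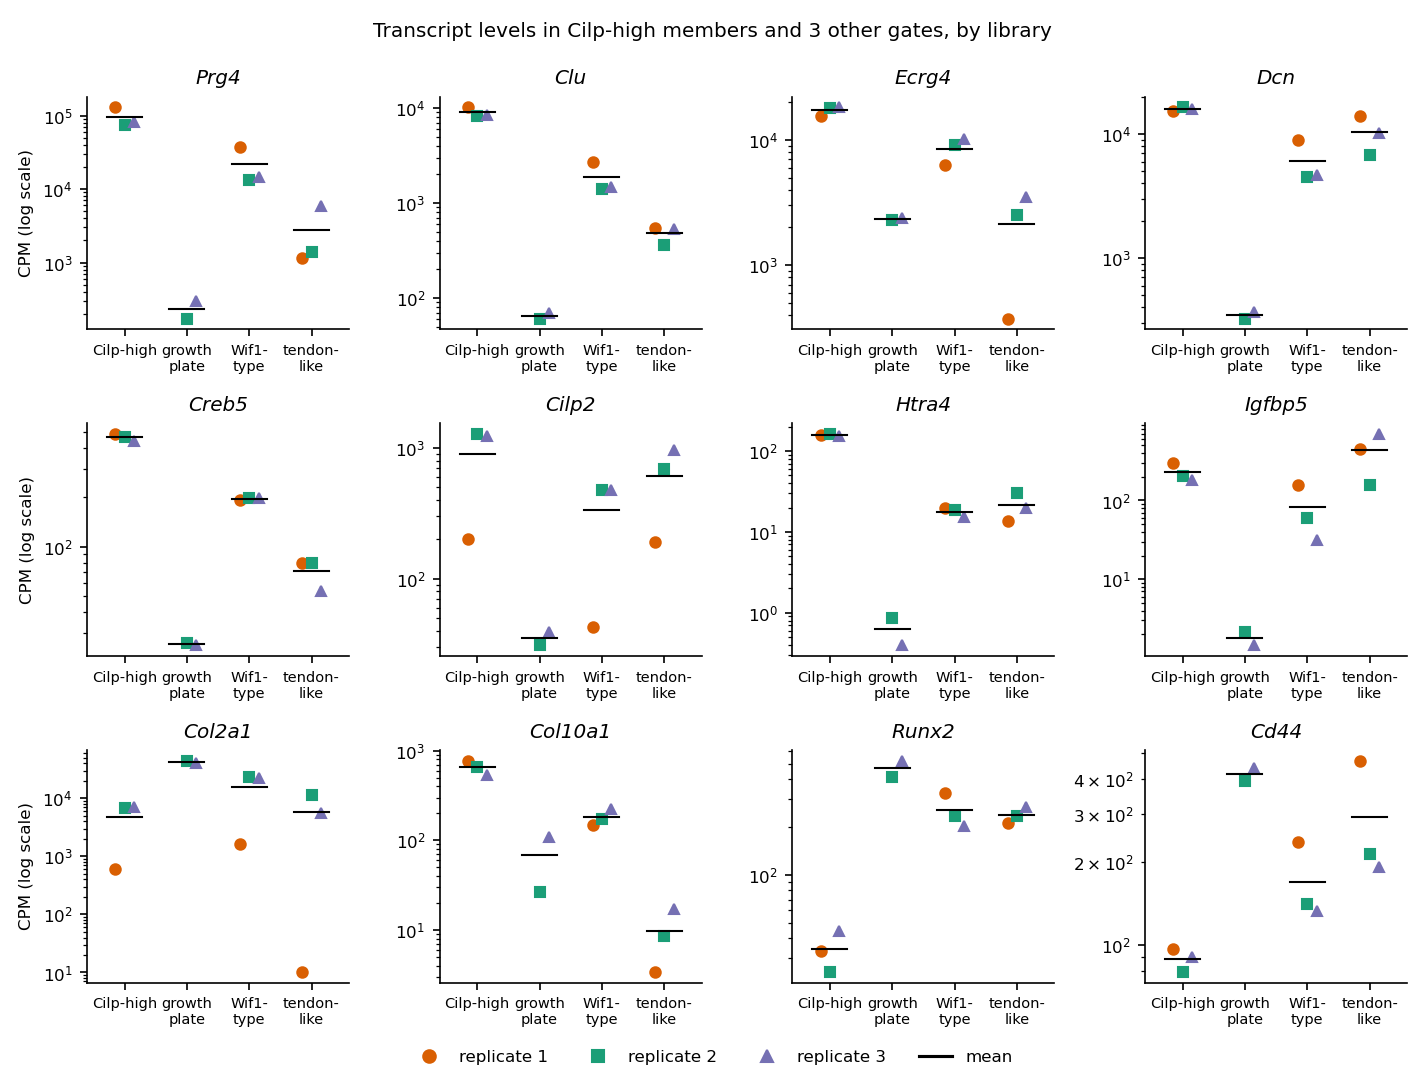
Levels (y axis, CPM on a log axis) of 12 named genes in the Cilp-high members and the comparator populations, 1 point per library and a bar at the mean. For Prg4, Creb5, Clu and Htra4 the 3 member libraries lie above all comparator libraries, and for Runx2 and Cd44 they lie below all of them.

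Near the threshold the level of Prg4 did not step in 1 direction. Cells that met the other conditions with Cilp at 0.3 to 0.4% of UMIs (35, 121 and 247 cells, not members) had Prg4 at 133542, 93412 and 101243 CPM, and members at 0.4 to 0.5% (49, 128 and 217 cells) had 161347, 88002 and 104489 CPM. Clu was at 6862, 2716 and 3264 CPM just outside and 7636, 3224 and 3977 CPM just inside. Gas1 was at 137, 918 and 894 CPM outside and 416, 1016 and 1139 CPM inside. The rule cuts through a range of Cilp values, and these values are a description with no test.

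Over the whole range of Cilp in cells that met the other conditions, Prg4 and Clu took different courses. Prg4 was at 4828, 2783 and 3682 CPM in cells with no Cilp UMI, at 144299, 95179 and 102159 CPM at 0.4 to 0.8% Cilp, its highest band, and at 55689, 29534 and 32115 CPM above 1.6%. Clu was at 429.9, 547 and 720.1 CPM with no Cilp UMI and at 10531, 19365 and 20567 CPM above 1.6%. Gas1, Gldc, Ecrg4, Cilp2 and Htra4 were, like Clu, higher in every band from 0.4% on than in cells without Cilp in all 3 libraries. Col2a1, the main collagen of cartilage, was at 2462, 34207 and 30088 CPM with no Cilp UMI and at 911, 3781 and 2984 CPM above 1.6%, lower in all 3 libraries. The top band of replicate 1 held only 18 cells. The bands come from the same libraries and differ in depth, and they carry no test.

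**Figure D3:**
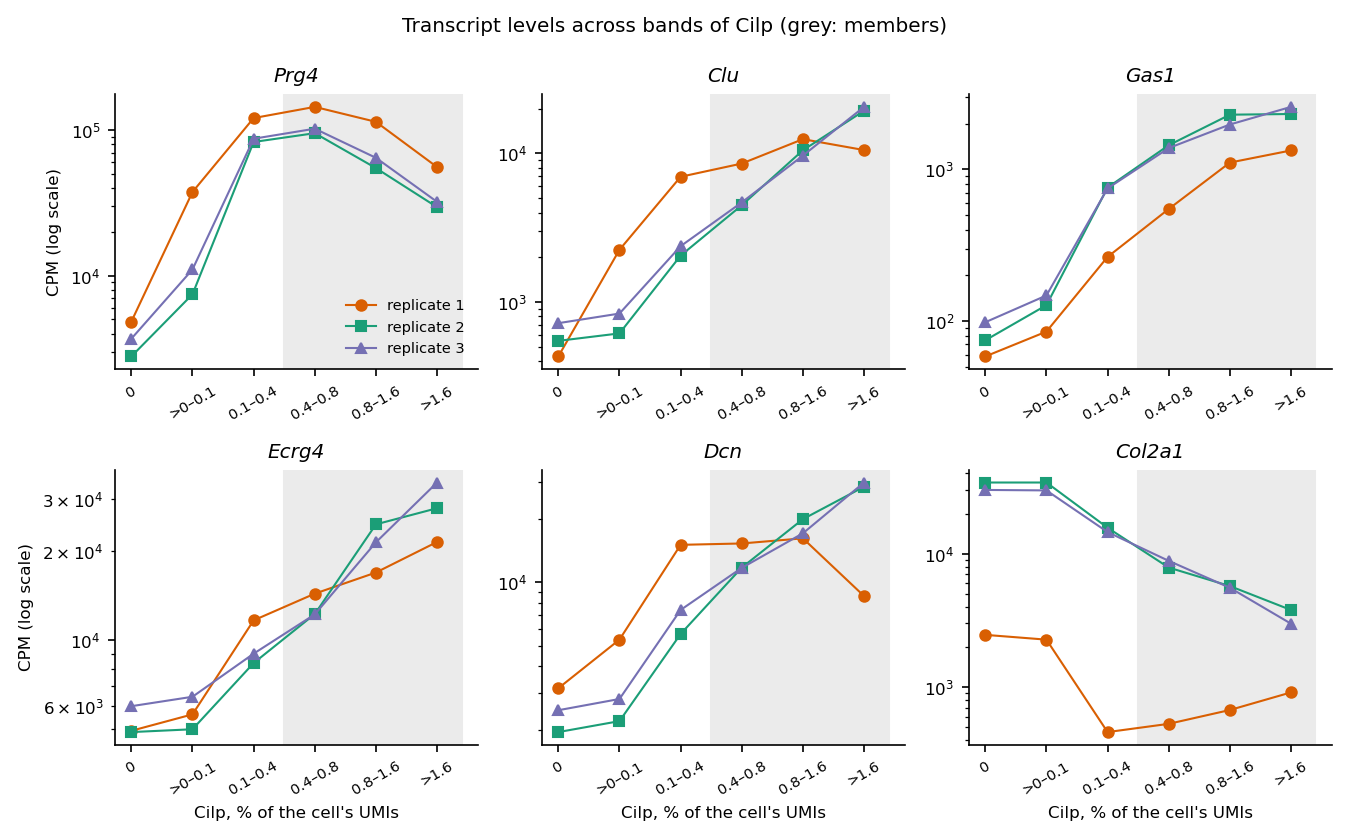
Levels (y axis, CPM on a log axis) of Prg4, Clu and other genes in cells grouped by the share of Cilp in their UMIs (x axis, percent), 1 line per library, with the bands of the members shaded. Prg4 is highest at 0.4 to 0.8% Cilp, at 144299, 95179 and 102159 CPM, and lower above 1.6%.

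Among the members Prg4 spread widely. Its median share of a cell's UMIs was 11.1%, 3.59% and 4.22%, the 10th percentile lay at 1.79%, 0.531% and 0.719%, and the highest cell reached 38.4%, 34.5% and 60.0%. At least 10% of UMIs were Prg4 in 163, 186 and 367 members, which is 52.1%, 26.4% and 27.1% of them, and under 1% in 17, 128 and 220 members. Levels of other genes were compared between these 2 ends after removing the Prg4 UMIs from the totals.

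Members richest in Prg4 had more transcripts of Inhba, which encodes a subunit of activin, and of Hbegf, a growth factor that binds the EGF receptor. Inhba was at 7558, 505 and 841 CPM in the band of at least 10% Prg4 against 571, 173 and 179 CPM in the band under 1%. Hbegf was at 6795, 2100 and 2075 CPM against 2338, 848 and 915 CPM. Sox9, the transcription factor of the chondrocyte lineage, was at 2591, 1764 and 1953 CPM against 844, 653 and 863 CPM. All 3 genes were higher in the Prg4-richest band in every library.

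Other genes ran the opposite way. Igfbp5, which binds insulin-like growth factors, was at 35.1, 30.5 and 27.3 CPM in the Prg4-richest band against 1819, 599.8 and 575 CPM in the poorest, and Comp, cartilage oligomeric matrix protein, was at 2159, 4489 and 4232 CPM against 6785, 8845 and 9115 CPM. For both genes all 3 libraries shared the direction. Clu was at 11805, 5856 and 5944 CPM in the Prg4-richest band and 5449, 10158 and 10854 CPM in the poorest, so that replicate 1, with 17 cells in the poorest band, went against replicates 2 and 3. The bands were set after the data were seen and carry no test.

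**Figure D4:**
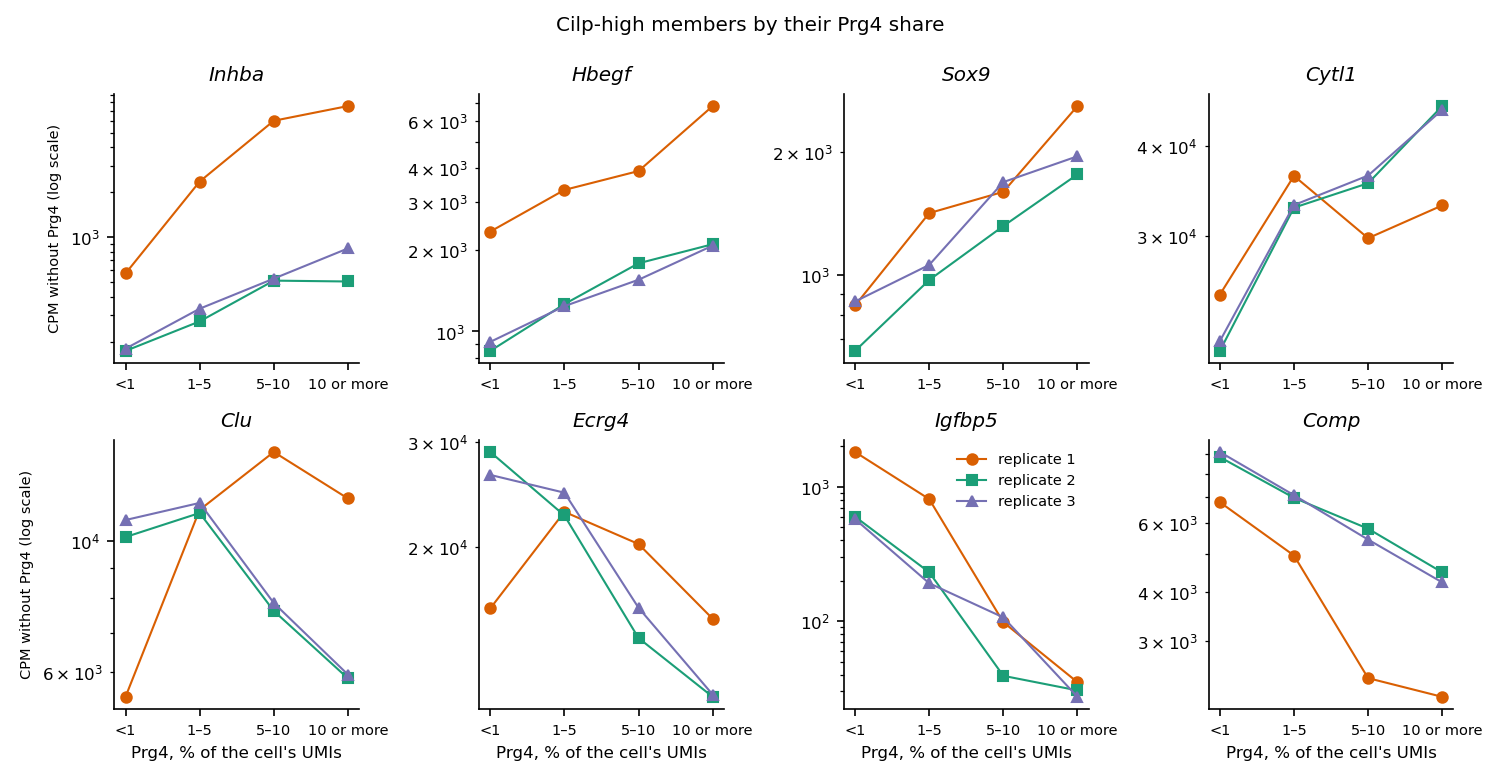
Levels (y axis, CPM of UMIs other than Prg4, log axis) of genes in members grouped by the share of Prg4 in their UMIs (x axis, percent), 1 line per library. Inhba and Sox9 are higher and Igfbp5 and Comp lower at 10% or more Prg4 than under 1% in all 3 libraries.

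The gene lists that follow hold other genes of each pathway, whatever their values. Against growth plate cells, 50.2% of all genes tested passed the threshold (25.5% higher and 24.7% lower in the members), against Wif1-type cells 20.9% (9.04% higher and 11.8% lower), and against tendon-like cells 26.3% (13.6% higher and 12.7% lower). These are 7471, 3103 and 3917 genes, and the median log2 difference of all genes was 0.03, 0.004 and 0.09. The counts moved with the libraries used: without replicate 1 they were 8998, 4928 and 3500. Against Wif1-type and tendon-like cells they were 633 and 2150 without replicate 2, and 613 and 2017 without replicate 3. A single growth plate sum was left without replicate 2 or 3, so no growth plate count is given there. Other growth plate values without those replicates rest on that 1 sum. Without the block, 1684 genes passed against Wif1-type cells. The comparisons share the member sums and are not independent. The growth plate comparison also draws on the member sum of replicate 1, which has no growth plate partner. Without replicate 1, 7363 of the 7372 genes called and still tested stayed called, and 0 of those changed sign.

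Of 12 genes of the superficial zone, 8 were higher and 1 lower in the members than in growth plate cells, with a median log2 difference of 3.51. Creb5, a transcription factor that promotes Prg4 expression in superficial cells, was at 487, 469.9 and 444 CPM against 25.8 and 25.1 CPM, a log2 difference of 4.30 ± 0.24 (adjusted p = 1.0e-09). Abi3bp, an extracellular matrix protein, was at 531, 818 and 794 CPM against 7.14 and 12.2 CPM (6.37 ± 0.36). Erg, a transcription factor of joint-forming cells, was at 111, 143 and 136 CPM against 7.22 and 8.54 CPM (4.30 ± 0.23). Dkk3, a secreted glycoprotein, and Thbs4, a thrombospondin, were also higher, by 7.43 ± 0.52 and 4.09 ± 0.31, the latter 4.72 without replicate 3. The exception was Cd44, the hyaluronan receptor, at 96.4, 79.5 and 90.3 CPM against 393 and 441 CPM (-2.33 ± 0.21).

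Against Wif1-type cells 5 genes of the superficial list were higher and 1 lower, with a median of 0.50. Creb5 was at 193, 199 and 199 CPM in Wif1-type cells (1.35 ± 0.18, adjusted p = 5.1e-05), and Vit, vitrin, was at 267, 379 and 369 CPM in members against 162, 182 and 169.9 CPM (1.10 ± 0.16). For both genes the libraries of the populations did not overlap. Erg (0.40 ± 0.17, adjusted p = 0.11), Abi3bp (0.61 ± 0.23, adjusted p = 0.073) and Thbs4 (-0.19 ± 0.23, adjusted p = 0.62) did not pass. Without replicate 1, Erg (0.27) and Abi3bp (0.63) passed, and with members at 0.8% Cilp or more Thbs4 (-0.82) did. Against tendon-like cells 7 genes were higher and 3 lower, with a median of 1.52: Creb5 was higher by 3.20 ± 0.21, whereas Thbs4 was lower at -2.86 ± 0.24, with 6666, 4243 and 3888 CPM in the tendon-like cells.

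Core matrix genes of cartilage were mostly lower than in growth plate cells. Of 13 genes, 10 were lower and 2 higher, with a median of -2.05. Col9a1, a chain of type IX collagen, was at 3.38, 244 and 275 CPM against 3818 and 3615 CPM (-3.84 ± 0.47, adjusted p = 4.2e-06). Epyc, epiphycan, a growth plate proteoglycan, was at 0, 6.61 and 6.64 CPM against 287 and 235 CPM (-5.29 ± 0.29). Vcan, versican, was at 152, 83.9 and 81.8 CPM against 1.61 and 2.37 CPM, higher by 5.57 ± 0.31.

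Col2a1 was at 597, 6677 and 7001 CPM in the members against 44517 and 40903 CPM. Its difference of -2.05 ± 0.77 passed narrowly (adjusted p = 0.035). It was -2.56 without replicate 1, and it missed the threshold at -1.53 without replicate 2, at -1.55 without replicate 3 and at -3.10 without the block. It also missed it with DESeq2 (-1.98), with members from 0.2% Cilp on (-1.73) and with comparators up to 0.4% Cilp (-1.94). Against Wif1-type cells 5 of the 13 genes were lower and 1 higher (median -0.99), and against tendon-like cells 2 lower and 5 higher (median 1.08). Col9a1 was lower than in Wif1-type cells, at 70.9, 1085 and 981 CPM there (-2.30 ± 0.44, adjusted p = 0.0013), and this was -2.95 without replicate 3 and did not pass without the block (-2.02).

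Among 12 tested genes named for articular and other permanent cartilage, 6 were higher and 2 lower than in growth plate cells (median 0.65), 5 higher and 1 lower than in Wif1-type cells (median 0.001) and 10 higher and 1 lower than in tendon-like cells (median 2.16). Cilp2, the close relative of Cilp (chromosome 8, 69880369 to 69887687), was at 201, 1276 and 1226 CPM in the members, 30.8 and 39.3 CPM in growth plate cells (5.28 ± 0.33), and 42.6, 478 and 475 CPM in Wif1-type cells (1.603 ± 0.24, which did not pass without the block). Chrdl2, a chordin-like BMP antagonist, was at 116, 62.0 and 84.2 CPM against 1.27 and 1.58 CPM in growth plate cells (5.78 ± 0.29) and 14.2, 25.2 and 31.2 CPM in Wif1-type cells (1.52 ± 0.18, or 0.74 with those cells at up to 0.4% Cilp). In each library both genes were above their level in growth plate and Wif1-type cells. Cnmd, chondromodulin, an inhibitor of vessel growth, was at 24.6, 265 and 312 CPM against 2724 and 2726 CPM in growth plate cells (-3.25 ± 0.58).

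Of 11 tested chondrogenic transcription factors, 1 was higher and 6 were lower than in growth plate cells (median -0.84), 0 higher and 6 lower than in Wif1-type cells (median -0.69) and 4 higher and 3 lower than in tendon-like cells (median 0.44). Runx2, which drives chondrocyte enlargement and bone formation, was at 33.3, 24.5 and 44.2 CPM in members, 414 and 524 CPM in growth plate cells (-3.70 ± 0.24, adjusted p = 4.7e-09) and 329, 236 and 204 CPM in Wif1-type cells (-2.76 ± 0.22, adjusted p = 3.2e-07). Its relative Runx3 was at 3.38, 10.6 and 11.2 CPM against 150.5 and 146 CPM in growth plate cells (-3.79 ± 0.28). Sox9 was at 1776, 1092 and 1271 CPM and did not pass against growth plate cells, with 1532 and 1728 CPM (0.18 ± 0.50, adjusted p = 0.78). Without replicate 1 Sox9 was lower in the members, at -0.39, and this passed. Against tendon-like cells, with 71.2, 474 and 342 CPM, Sox9 was higher by 2.93 ± 0.47, by 1.90 without replicate 1 and by 3.78 without replicate 2.

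The list of hypertrophy, the enlargement that precedes bone formation, also held growth plate genes such as Pth1r, Fgfr3 and Ptch1. Its genes were mostly lower in the members than in growth plate and Wif1-type cells. Of 13 genes, 7 were lower and 2, Col10a1 and Ibsp, higher than in growth plate cells (median -1.15). Then 10 were lower and 1, Col10a1, higher than in Wif1-type cells (median -1.98). Spp1 and Mmp13 passed in neither comparison. Against tendon-like cells 0 were lower and 4 higher (median 0.56). In Wif1-type cells the 7 osteoblast markers summed to 18407 to 21830 CPM, most of it Ibsp, which is also in this list. Differences from them may therefore not be differences from cartilage cells alone. Which cells of that gate held the Ibsp was not tested. Pth1r, the receptor of parathyroid hormone-related protein, was at 14.0, 40.03 and 35.3 CPM against 365 and 283 CPM in growth plate cells (-3.18 ± 0.29) and 210.0, 124 and 125 CPM in Wif1-type cells (-2.13 ± 0.27). Alpl, the alkaline phosphatase of mineralizing cells, was at 35.7, 64.2 and 70.9 CPM against 865, 523 and 583 CPM in Wif1-type cells (-3.40 ± 0.29, adjusted p = 4.7e-07).

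Ibsp, bone sialoprotein, was at 1696, 2059 and 2471 CPM in members. It was at 196 and 184 CPM in growth plate cells (3.90 ± 0.49) and at 15702, 17512 and 19936 CPM in Wif1-type cells (-2.95 ± 0.39), so the Wif1-type gate holds cells rich in Ibsp. Among the members, the 5% with the largest Ibsp share held 64.8%, 53.6% and 56.2% of its UMIs.

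Col10a1, the type X collagen gene that marks hypertrophic chondrocytes (chromosome 10, 34389981 to 34397085), was at 777, 666 and 532 CPM in the members. It was at 26.8 and 109 CPM in growth plate cells, 148, 173 and 222 CPM in Wif1-type cells and 3.39, 8.61 and 17.2 CPM in tendon-like cells. All 3 member libraries were above every comparator library. No comparator was gated on genes of hypertrophy, so the members were not compared with hypertrophic chondrocytes as a population. The difference was 3.67 ± 0.44 from growth plate cells (adjusted p = 3.7e-06), 2.01 ± 0.34 from Wif1-type cells (adjusted p = 0.00047) and 6.73 ± 0.51 from tendon-like cells (adjusted p = 4.2e-08). The growth plate value was 2.90 without replicate 2 and 4.97 without replicate 3, the Wif1-type value 1.11 with those cells at up to 0.4% Cilp, and the tendon-like value 6.09 without replicate 1 and 7.36 without replicate 3.

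A Col10a1 UMI was seen in 28.1, 25.1 and 23.5% of the members, against 2.76, 8.33 and 8.04% of the more deeply sequenced Ptprc-positive cells. With each cell thinned to 1000 UMIs the shares were 17.4, 14.0 and 14.5% and 0.699, 0 and 1.02%, after leaving out 3, 4 and 19 members and 2, 0 and 3 Ptprc-positive cells that were shallower.

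Most of the Col10a1 transcripts came from few members. Col10a1 was at least 0.2% of UMIs in 28, 58 and 101 members (8.95%, 8.24% and 7.46%), which held 86.5%, 87.6% and 84.0% of the Col10a1 UMIs. With Col10a1 UMIs set aside, Prg4 in these 187 cells was at 148935, 85305 and 89007 CPM, above the 127017, 73238 and 80053 CPM of the other members in each library. Mgp, matrix Gla protein, an inhibitor of calcification, was at 4930, 4486 and 5571 CPM in them against 16844, 15785 and 16790 CPM. Acan was at 2137, 2485 and 2558 CPM against 1081, 1320 and 1428 CPM, so Mgp was lower and Acan higher in the Col10a1-rich cells of every library. Clu was lower in them too, at 7855, 3761 and 4324 CPM against 10465, 8762 and 8828 CPM, and so was Dcn in every library. The Col10a1-rich cells were deeper, with medians of 7879.5, 10027 and 5318 UMIs against 5836, 7506 and 4984.

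Other genes of the hypertrophy list took no single course. Spp1, osteopontin, was at 3633, 1258 and 2718 CPM in the Col10a1-rich members against 1685, 1129 and 1499 CPM in the others, higher in all 3 libraries. Ibsp was at 1082, 2611 and 3774 CPM against 1783, 2003 and 2371 CPM, higher in replicates 2 and 3 and lower in replicate 1. Runx2 was at 27.9, 28.1 and 60.7 CPM against 34.0, 24.2 and 43.0 CPM, and Alpl at 15.9, 78.6 and 88.1 CPM against 38.4, 62.8 and 69.6 CPM, both also higher in replicates 2 and 3 and lower in replicate 1. Pth1r was at 11.9, 24.3 and 43.1 CPM against 14.3, 41.7 and 34.7 CPM, higher in replicate 3 alone. Ihh and Mmp13 were too rare in the members for such a comparison, at most 1.65 and 14.6 CPM in the other members. The cut of 0.2% was set after the values were seen, and no test was made.

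Of 11 small leucine-rich proteoglycans, which bind collagen and growth factors, 5 were higher and 1 lower than in growth plate cells (median 0.69), 2 higher and 4 lower than in Wif1-type cells (median -0.51), and 4 higher and 6 lower than in tendon-like cells (median -1.76). Dcn was at 15416, 16439 and 15962 CPM against 324 and 369 CPM in growth plate cells (5.49 ± 0.31). Omd, osteomodulin, was at 174, 862 and 942 CPM against 871, 2649 and 2828 CPM in Wif1-type cells (-1.71 ± 0.22, which did not pass without the block). Aspn, asporin, was at 9.16, 9.75 and 12.6 CPM against 1949, 1538 and 1693 CPM in tendon-like cells (-6.78 ± 0.36).

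In the TGF-beta and IGF pathways, 12 of 21 genes were higher and 6 lower than in growth plate cells (median 1.22), 4 higher and 6 lower than in Wif1-type cells (median 0.13), and 4 higher and 11 lower than in tendon-like cells (median -0.64). The ligand gene Tgfb2 was at 78.1, 41.9 and 54.4 CPM against 466 and 509 CPM in growth plate cells (-3.21 ± 0.23) and 358, 174 and 215 CPM in Wif1-type cells (-1.94 ± 0.20). Ltbp1, which stores latent TGF-beta in the matrix, was at 7.23, 15.7 and 20.1 CPM and lower than in growth plate, Wif1-type and tendon-like cells, with differences of -2.41 ± 0.22, -2.85 ± 0.21 and -2.25 ± 0.24. Its relative Ltbp3 was at 158, 162 and 157 CPM against 38.2 and 42.6 CPM in growth plate cells (2.11 ± 0.19). Igfbp5 was higher at 301, 205 and 184 CPM against 2.12 and 1.45 CPM in growth plate cells (6.77 ± 0.62). Few members held most of it: the 5% with the largest Igfbp5 share had 76.6%, 76.2% and 81.1% of its UMIs. No Igfbp5 UMI was seen in 75.1%, 82.8% and 85.2% of the members. Igf1 was lower at 9.64, 1.91 and 1.27 CPM against 336, 274 and 384 CPM in tendon-like cells (-6.30 ± 0.37), a difference of -7.22 without replicate 1 and -5.54 without replicate 3.

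Cdon, a hedgehog co-receptor like Gas1, was higher in the members than in all 3 comparators. It was at 180.3, 250.1 and 217 CPM in members against 23.5 and 22.7 CPM in growth plate cells (3.498 ± 0.22), 22.7, 60.4 and 56.7 CPM in Wif1-type cells (2.18 ± 0.19, or 1.59 with those cells at up to 0.4% Cilp) and 35.6, 54.1 and 54.1 CPM in tendon-like cells (2.68 ± 0.22). Of the 11 hedgehog genes, 6 were higher and 1 lower than in growth plate cells (median 0.63), 2 higher and 2 lower than in Wif1-type cells (median 0.17), and 4 higher and 1 lower than in tendon-like cells (median 0.81). Ptch1, a receptor and target of the pathway that was counted with the hypertrophy list, was at 42.9, 47.7 and 42.4 CPM against 159, 134 and 111 CPM in Wif1-type cells (-1.44 ± 0.16).

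Among 14 matrix proteases and inhibitors, 6 were higher and 6 lower than in growth plate cells (median 0.10), 4 higher and 4 lower than in Wif1-type cells (median -0.11), and 5 higher and 5 lower than in tendon-like cells (median 0.60). Adamts5, an aggrecan-cleaving protease, was at 69.9, 88.9 and 79.6 CPM against 39.7, 45.6 and 36.8 CPM in Wif1-type cells (1.07 ± 0.14, adjusted p = 3.8e-05). Mmp2, gelatinase A, was at 7.71, 12.7 and 13.1 CPM against 781, 869 and 923 CPM in tendon-like cells (-5.70 ± 0.26). Htra4, a serine protease outside the list, was at 160.1, 163 and 155 CPM, with 0.850 and 0.394 CPM in growth plate cells (7.996 ± 0.29, 8.69 without replicate 2) and 19.9, 18.4 and 15.2 CPM in Wif1-type cells (3.30 ± 0.18, adjusted p = 5.0e-09, or 2.43 with those cells at up to 0.4% Cilp).

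Of 9 tested complement genes, 7 were higher and 0 lower than in growth plate cells (median 2.10), 2 higher and 2 lower than in Wif1-type cells (median -0.43), and 2 higher and 4 lower than in tendon-like cells (median -1.30). C4b, a complement component, was at 308, 126 and 144 CPM in members against 45.2 and 46.3 CPM in growth plate cells (1.50001 ± 0.21). Of 8 genes that regulate pyrophosphate and mineral deposition, 2 were higher and 2 lower than in growth plate cells (median 0.81), 0 higher and 1 lower than in Wif1-type cells (median 0.09), and 4 higher and 0 lower than in tendon-like cells (median 1.84). Slc20a1, a phosphate transporter, was at 339, 305 and 354 CPM against 107 and 112 CPM in growth plate cells (1.68 ± 0.20).

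Among genes of glycine cleavage and serine synthesis other than Gldc, 0 of 9 were higher and 6 were lower than in growth plate cells (median -0.73), 1 was higher and 0 lower than in Wif1-type cells (median 0.26), and 1 was higher and 1 lower than in tendon-like cells (median 0.43). Beside Casr, 3 of 8 genes of calcium sensing and parathyroid hormone-related protein were higher and 3 lower than in growth plate cells (median 0.40), 0 and 3 against Wif1-type cells (median -0.25), and 1 and 1 against tendon-like cells (median 0.10). Gnaq, a G protein subunit through which Casr can signal, was lower than in Wif1-type cells (-0.996 ± 0.16).

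Secreted Wnt antagonists gave 1 higher and 1 lower of 6 against growth plate cells (median 0.65), 0 and 4 against Wif1-type cells (median -2.04) and 0 and 3 against tendon-like cells (median -2.21). Notum, an enzyme that inactivates Wnt ligands, was at 14.5, 12.0 and 15.7 CPM against 73.8, 83.8 and 88.0 CPM in Wif1-type cells (-2.52 ± 0.22). Connective tissue collagens gave 4 higher and 4 lower of 12 (median 0.53), 1 and 4 (median -0.37) and 1 and 6 (median -0.41) in the same order of comparisons. Stress response genes, which dissociation of tissue can induce, gave 6 higher and 1 lower of 10 (median 0.84), 0 and 2 (median -0.35) and 1 and 2 (median -0.11).

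**Figure D5:**
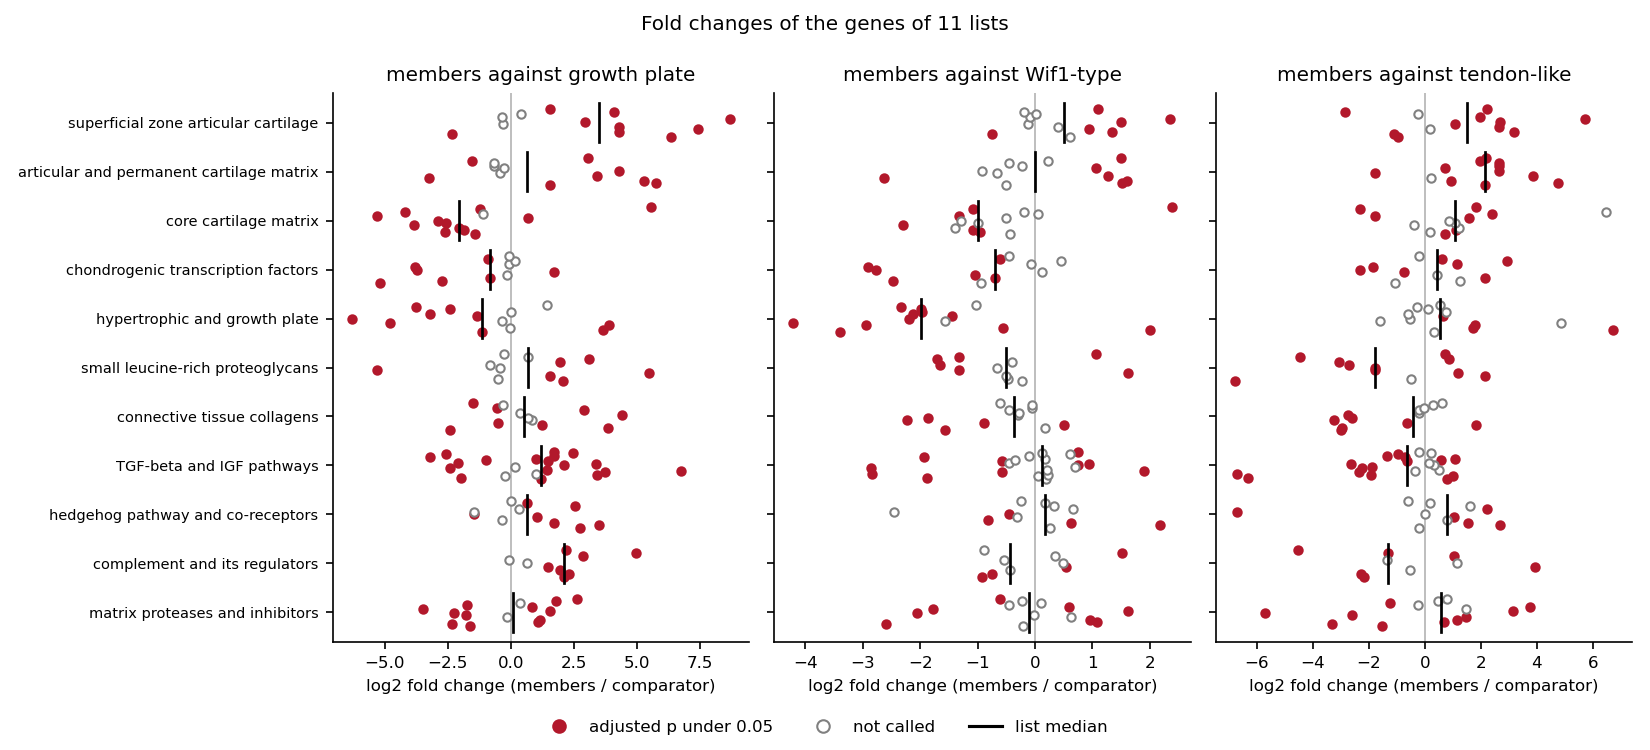
Log2 differences (x axis) of the genes of 11 of the 16 lists between the Cilp-high members and each comparator, 1 point per gene, filled where the adjusted p is under 0.05, with the median of the list as a bar. The superficial zone list has medians of 3.51, 0.50 and 1.52 and the hypertrophic and growth plate list -1.15, -1.98 and 0.56 against growth plate, Wif1-type and tendon-like cells.

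The genes that differed most from the growth plate, with at least 50 CPM in the higher population, were led after Gas1 and Prg4 by Htra4. Angptl7, an angiopoietin-like secreted protein, was at 52.6, 384 and 376 CPM against 0.850 and 2.37 CPM (7.76 ± 0.59, 7.01 without replicate 2 and 8.45 without replicate 3). Sod3, the extracellular superoxide dismutase, was at 483, 282 and 259 CPM against 2.89 and 3.15 CPM (6.62 ± 0.40). Itih5, of the family that binds hyaluronan, and Tesc, the calcium-binding protein tescalcin, were higher by 6.79 ± 0.27 and 6.46 ± 0.36, the latter 7.36 without replicate 2. In the other direction C1qtnf3, a secreted C1q-like protein, was at 0, 7.48 and 4.38 CPM against 335 and 311 CPM (-5.80 ± 0.33), and Ppa1, an inorganic pyrophosphatase, was at 74.3, 117 and 115 CPM against 4152 and 3347 CPM (-4.82 ± 0.44).

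Tesc and Itih5 were also among the genes most above the Wif1-type cells. Tesc was at 167, 79.4 and 86.5 CPM against 14.2, 7.83 and 8.12 CPM (3.44 ± 0.23), and Itih5 at 111, 70.0 and 63.7 CPM against 17.0, 11.1 and 10.50 CPM (2.65 ± 0.16), while tendon-like cells had 281, 155 and 103 CPM of Itih5. Anxa3, an annexin, was at 144, 97.6 and 85.1 CPM against 39.7, 8.94 and 10.0 CPM (3.15 ± 0.17). Serpina1e, of the antitrypsin family, was at 233, 214 and 159 CPM against 11.3, 8.45 and 10.4 CPM (4.33 ± 0.21), but its near-identical copies share sequence, so the assignment to this copy is uncertain. Members and Wif1-type cells did not overlap in these 4 genes, which were picked for a large difference in the same direction in every library. The lack of overlap is therefore largely set by the choice.

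Genes lower than in Wif1-type cells included Lef1, a transcription factor of Wnt signalling, at 9.16, 12.2 and 15.7 CPM against 148, 150.5 and 129 CPM (-3.37 ± 0.31). Efemp1, a fibulin of the extracellular matrix, was at 2.41, 6.61 and 11.02 CPM against 48.2, 85.3 and 99.3 CPM (-3.41 ± 0.17). Spon1, F-spondin, was at 6.75, 26.8 and 30.5 CPM against 148, 264 and 223 CPM (-3.21 ± 0.23). The libraries of the 2 populations did not overlap for these genes, which were picked in the same way, so this too is largely set by the choice.

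Against tendon-like cells, Lgr6, a receptor of R-spondins, was at 164, 195 and 196 CPM against 1.69, 2.46 and 29.5 CPM (4.93 ± 0.39), a difference of 4.30 without replicate 2 and 6.88 without replicate 3. Nt5e, the ectonucleotidase CD73 that makes adenosine, was at 951, 521 and 540.0 CPM against 16.9, 118 and 88.6 CPM (3.71 ± 0.45), which was 2.72 without replicate 1 and 4.56 without replicate 2. Itgbl1, an integrin beta-like protein, was at 1.45, 3.65 and 4.81 CPM against 1631, 1334 and 1289 CPM (-8.14 ± 0.34). Postn, periostin, was at 2.41, 0.870 and 0.141 CPM against 734, 1176 and 1004 CPM.

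Replicate 1 was also high for 4 genes picked after their values were seen or by their difference from tendon-like or Wif1-type cells. Nos2, the inducible nitric oxide synthase, was at 189, 4.87 and 7.49 CPM in the members, with 0 UMIs in tendon-like cells of every library and 165, 0.863 and 2.50 CPM in Wif1-type cells. Lcn2, lipocalin 2, was at 488, 58.8 and 40.98 CPM in the members and 1251, 5.30 and 12.6 CPM in Wif1-type cells, and Cxcl2, a neutrophil chemokine, at 457, 2.61 and 4.24 CPM in the members. Inhba was at 4887, 326 and 441 CPM in the members. For all 4 genes replicates 2 and 3 were below replicate 1, in the Wif1-type cells as in the members for Nos2 and Lcn2.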

How the data were processed

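The authors deposited raw UMI counts per gene and barcode for 3 libraries of 10x 3′ chemistry, made with Cell Ranger 7.1.0 and mm10. Barcodes numbered 2606, 7172 and 10529 with 20985636, 79905165 and 69890252 UMIs. Barcodes under 200 genes or over 20% mitochondrial UMIs were removed, which left 2527, 6725 and 10230 cells. No doublet caller was run, and leaving out deep and co-expressing cells was an alternative.

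Counts were summed per library and population (at least 10 cells), filtered with filterByExpr, scaled by TMM and tested with edgeR 4.0.16 (R 4.3.3) in 1 fit of all 4 populations with the library as a block, since the sums of a library come from the same cell preparation. Their deviations correlated at 0.062 to 0.214 within and -0.216 to 0.159 between libraries. DESeq2 1.42.0 was an alternative. Tables used Python 3.11.15, pandas 2.3.3, numpy 2.4.6 and scipy 1.17.1. On simulated counts, log2 changes of 2 were recovered in 91% (growth plate), 95.9% (Wif1-type) and 76.8% (tendon-like) of genes. Changes of 1 were recovered in 60.8%, 72.6% and 50.5%, and 1.96%, 5.78% and 3.10% of calls were false. The simulation gave all sums a shared mean profile with no library effect and changed fewer genes than passed here, so these rates may not hold for the data.

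Named genes were the 10 with the largest change per direction and comparison (at least 50 CPM in the higher population, same direction in every library, gate, mitochondrial, ribosomal, Gm and Rik genes left out), genes of 16 lists and the given markers. Sparc, Inhba, Hbegf, Alcam, Ly6a and Itga8, outside these, were chosen after their values were seen. Members and lists were chosen with earlier results of these data known. Positions came from the GENCODE annotation of mm10.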

Additional observations from a re-analysis of the deposited data

How the results depend on the processing

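Of 78 gene differences given with a test, 69 kept their direction and side of the threshold under all 13 alternatives, and the 9 others are Prg4, Col2a1, Sox9, Erg, Abi3bp, Thbs4, Col9a1, Cilp2 and Omd, each in 1 comparison. Of 74 called differences, 34 moved by over 1.5 times in fold under an alternative that kept every library. With members from 0.8% Cilp on the moved log2 differences were, against growth plate cells Angptl7 (8.38), Cnmd (-3.95), Col9a1 (-4.50), Ibsp (3.26), Ltbp1 (-2.99), Runx3 (-4.65) and Tgfb2 (-4.18), and against Wif1-type cells Col9a1 (-2.98), Efemp1 (-4.41), Lef1 (-3.95), Omd (-2.54), Serpina1e (5.07), Spon1 (-4.16) and Tgfb2 (-2.97), and against tendon-like cells Prg4 (5.08) and Thbs4 (-3.52). Without deep and co-expressing cells the moved log2 differences were, against growth plate cells C1qtnf3 (-6.40), Col10a1 (4.56), Ibsp (4.77), Runx2 (-4.48) and Runx3 (-4.70), and against Wif1-type cells Efemp1 (-4.12) and Lef1 (-4.12), and against tendon-like cells Creb5 (3.94), Igf1 (-7.18), Lgr6 (6.07), Prg4 (6.31) and Sox9 (3.75). With comparators at up to 0.4% Cilp the moved log2 differences were, against Wif1-type cells Cdon (1.59), Chrdl2 (0.74), Col10a1 (1.11), Htra4 (2.43), Prg4 (1.09), Serpina1e (3.51) and Tesc (2.73). With gates and tests on separate UMIs of each cell the moved log2 differences were, against growth plate cells Angptl7 (6.73), Col10a1 (5.27), Dkk3 (6.51), Igfbp5 (5.64) and Itih5 (6.18), and against tendon-like cells Sox9 (3.63). Without the replicate block the moved log2 differences were, against growth plate cells C4b (2.15) and Col2a1 (-3.10). Against growth plate cells Sox9 ranged from -0.39, its sign turned, without replicate 1 to 0.62 without replicate 3. Leaving out 1 library gave 2020 to 8998 genes past the threshold against growth plate cells, 613 to 4928 against Wif1-type cells and 2017 to 3500 against tendon-like cells. Without the replicate block the Wif1-type count was 1684, and Cilp2 (1.43), Col9a1 (-2.02) and Omd (-1.63) did not pass in that comparison. Abi3bp passed against Wif1-type cells with no filter on low counts (0.65) and with members from 0.2% Cilp on (0.69). The mean share of members was 16.3% at a Cilp threshold of 0.2%, 5.77% at 0.8% and 13.8% without deep and co-expressing cells. The causes were not tested. Growth plate cells of replicate 1 were too few for a sum, so that comparison rests on 2 libraries with a partner. Sums of few cells, such as the 55 Wif1-type cells of replicate 1, limit the levels of low genes.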

Other observations

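Alcam, the gene of the antigen used in the sort, was at 7.71, 5.74 and 6.08 CPM in the members, with a UMI in 0.958, 4.12 and 2.59% of them, against 133, 130.0 and 148 CPM in Ptprc-positive cells. Ly6a, which encodes Sca-1, the antigen the sort selected against, was at 5.79, 0.870 and 2.40 CPM in the members. Itga8, an integrin subunit, was at 0.964, 0.870 and 0.707 CPM in the members and 114, 65.2 and 49.2 CPM in tendon-like cells. Transcript levels do not measure the surface antigens that the sort used.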
